A study of Homo sapiens with 4 samples.

Results

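The cytosolic ribosomal protein genes were compared between CD133+ and CD133- clone cells of SW620, a human colon cancer cell line derived from a metastasis, on 4 Affymetrix arrays. They were chosen by symbol: RPL or RPS followed by digits and at most 1 letter A, L or X with an optional digit, or RPLP0, RPLP1, RPLP2 and RPSA, with pseudogenes left out, among probe sets whose platform annotation names a single gene. This gave 59 genes of 19775 named on the arrays, 38 of the large and 21 of the small subunit, measured by 120 probe sets. Each gene is represented by its brightest probe set by the mean of the 4 arrays. A further 15 symbols of this kind were named only by probe sets that also list another gene, mostly a small nucleolar RNA, and were not analysed here, which takes in RPL5, RPL10 and RPS26. RPLP0, RPSA and RPL26 were likewise not analysed here.

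The CD133+ group was clone CPC1, grown from a single SW620 cell sorted for the surface protein CD133 with magnetic beads, and the CD133- group was clone CNC1, grown from a single cell without it. Both were grown in Leibovitz's L-15 medium with serum and purified by CD133 again before total RNA was taken. Each group has 2 arrays of 1 clone, so what belongs to the clone and what belongs to CD133 cannot be told apart. The labels do not say whether replicate arrays had separate cultures, so the p-values rest on differences among these 4 arrays alone, and that spread may be technical. In bulk RNA, fewer cells of a kind and less RNA per cell cannot be told apart either.

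Values are log2 signals after quantile normalization of the deposited values, and differences are CD133+ minus CD133-. PROM1, the gene of CD133, had log2 signals of 8.46 and 8.73 on the CD133+ arrays, against 3.31 and 3.35 on the CD133- arrays, in the direction of the labels. Both CD133- signals lay below the level filter of 3.75, so no fold or p is given for it. Of 10 colon epithelial markers 9 were tested, and EPCAM, CDH1, KRT8, KRT18 and KRT19 had mean signals between 11.31 and 14.14 in both clones. VIL1 had mean signals of 10.18 in CD133+ and 10.54 in CD133- cells. CDX1 and CDX2 were dimmer, at mean signals of 6.40 or less in both clones. KRT20, a keratin of mature colonocytes, lay below the level filter, and LGALS4 was at 4.68 in CD133+ and 4.73 in CD133- cells. Of the tested markers of blood cells, fibroblasts and endothelium, 3, 5 and 2, none was called by limma and 0 had an unadjusted p under 0.05. That says nothing of their level: COL1A1 had mean signals of 7.01 in CD133+ and 6.96 in CD133- cells. LYZ had 6.24 in CD133+ and 6.63 in CD133- cells, and the rest of these markers had 5.72 or less. The COL1A1 means lay above those of the epithelial markers CDX1 and CDX2 in both clones. Of the 9 epithelial markers 0 were called and 4 had an unadjusted p under 0.05. CD133+ replicate 2 had the highest ratio of the 3' to the 5' control probe set of ACTB, at log2 values of 0.71 and 1.92 on the CD133+ arrays, against 1.18 and 0.92 on the CD133- arrays. The same ratio of GAPDH did not set this array apart, at 0.097 and 0.090 on the CD133+ arrays, against 0.017 and 0.026 on the CD133- arrays.

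Ribosomal proteins are the structural proteins of the small and large ribosomal subunits. They are made in the cytoplasm, imported into the nucleus, fitted onto ribosomal RNA in the nucleolus and exported as subunits, and cells keep their amounts matched to one another. Their mRNAs are among the most abundant in growing cells and nearly all begin with a C and a run of pyrimidines, the terminal oligopyrimidine (TOP) tract, through which mTOR and LARP1 control their translation. Several have paralogs with an L in the symbol (RPL3L, RPL10L, RPL22L1, RPL39L, RPS27L), which stand in for the main protein in some tissues or states.

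The tract is the sequence that most of these genes share and the choice by symbol did not use. RefSeq promoters (GRCh38.p14) matched 51 of the 59 genes by symbol. A C at the listed start followed by at least 4 bases that are each C or T, read on the strand of the gene, stood at a listed start of 35 of these 51 (68.6%), against 5.14% of the 27305 genes in the promoter table. Within 10 bases of a start it was found for 84.3% of the ribosomal protein genes and for 38.4% of all genes. Starts are as RefSeq lists them, so a missing tract says only that these letters are not at that base. The windows below run from 10 bases before the start to 20 bases from it and are shown for the genes that the results turn on, with the tract in capitals where it begins at the start. They are those of RPL22L1 (chr3:170870176-170870205, minus strand), its main form RPL22 (chr1:6199576-6199605, minus), RPS23 (chr5:82278335-82278364, minus), RPL10A (chr6:35468391-35468420, plus), RPS27 (chr1:153990752-153990781, plus), and the paralogs RPS27L (chr15:63157458-63157487, minus), RPL7L1 (chr6:42879606-42879635, plus) and RPL10L (chr14:46651762-46651791, minus).
RPL22L1: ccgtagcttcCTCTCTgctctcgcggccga
RPL22: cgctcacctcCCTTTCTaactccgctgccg
RPS23: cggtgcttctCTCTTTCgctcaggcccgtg
RPS27: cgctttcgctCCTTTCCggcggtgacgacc
RPL10A: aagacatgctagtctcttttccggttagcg
RPS27L: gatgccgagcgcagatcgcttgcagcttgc
RPL7L1: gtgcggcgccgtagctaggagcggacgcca
RPL10L: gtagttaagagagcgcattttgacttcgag
RPL22L1 carries the tract at its start as RPL22 does, whereas RPS27L, RPL7L1, RPL10L and RPL26L1 do not. In RPL10A a pyrimidine run follows a few bases after the listed start. The tested genes with the tract at a start had a median log2 difference of -0.0048 (35 genes, 21 of them negative) and those without it -0.037 (16 genes, 11 negative).

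At their brightest probe sets, most of them near the top of the signal range, the ribosomal protein genes differed little between the clones. Of the 59, 58 passed the filter on level, and 0 were higher and 1, RPL22L1, was lower in CD133+ than in CD133- cells at a limma adjusted p under 0.05. Over all 15820 genes tested 3.65% were called, 1.31% higher and 2.34% lower. At that share a list of 58 genes would hold few calls, so the count of 1 says little about these genes. At an unadjusted p under 0.05 there were 3 of the 58 (RPL22L1, RPL10A and RPS23), against 20.6% of all genes. The arrays of the clones did not overlap in 4 genes with CD133+ above and 16 with CD133+ below, against 51.6% of all genes, 30.4% above and 21.2% below. Quantile normalization affects the balance over all genes: 35.9% of called genes were higher with it, 21.1% in the values as deposited and 11.3% after centring the arrays.

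The median log2 difference was -0.022 over the 58 ribosomal protein genes and 0.058 over all genes tested. The gap between these medians was -0.080 with quantile normalization, -0.064 in the deposited values and -0.064 with centred arrays, where the median of all genes was -0.051 and that of the ribosomal protein genes -0.11. Of the 58 genes 38 had a negative difference, 19 a positive one and RPL41 had none, while 41.5% of all genes were negative. The 37 large subunit genes had a median of -0.025 (24 negative) and the 21 small subunit genes -0.021 (14 negative).

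Most differences were small. They lay within 0.1 of 0 in 45 of the 58 genes (77.6%), against 27.5% of all genes, and the median size was 0.046, against 0.20 over all genes. The 95% interval of the difference lay inside 0.32 on either side of 0, about 1.25-fold, in 46 of the 58 genes. The median standard error was 0.068 for these genes and 0.18 for all genes.

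Brightness bears on this. The signals of 46 of the 59 genes averaged over 13, near the highest deposited value of 14.57, and 49 lay in the top percentile of all probe sets. Probe sets of these genes made up 32 of the 100 brightest on the arrays, and 25 more of the 100 named a ribosomal protein gene together with another gene. Quantile normalization gives each rank the same value on every array, so a shift shared by the genes that fill the top ranks would be removed: RPL41, a very short protein of the large subunit, was the brightest probe set on all 4 arrays and its signal is 14.53 on each of them. In the values as deposited, the 46 bright genes had array medians of 13.89 and 13.91 on the CD133+ arrays, against 13.93 and 13.91 on the CD133- arrays, and a median difference of -0.028, against -0.022 after quantile normalization. How the deposited values were normalized is not given, so they cannot show whether a shared shift was removed before deposit. The 50 other genes with a signal over 13 had a median size of difference of 0.096, against 0.042 for the 46, and 0% of them were called by limma, with 22% at an unadjusted p under 0.05.

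**Figure D1:**
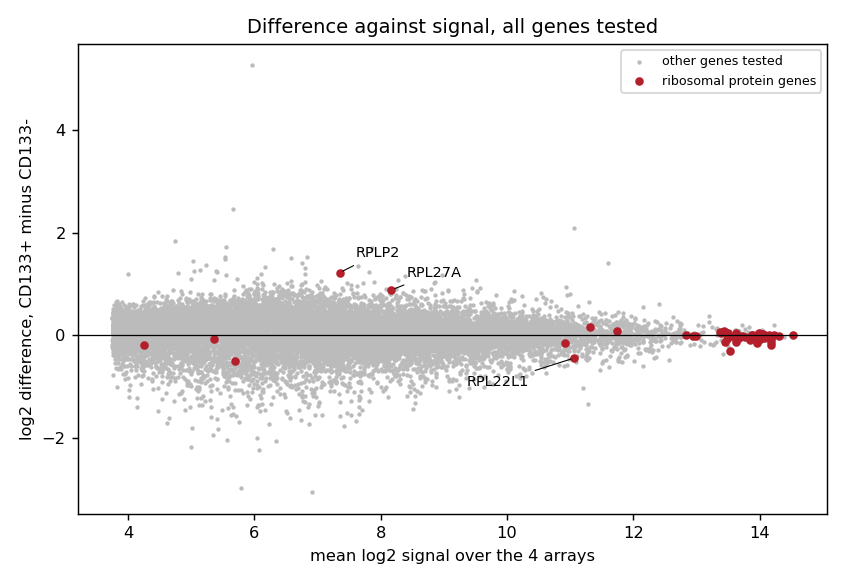
Each point is a gene tested, with its mean log2 signal over the 4 arrays on the horizontal axis and its log2 difference, CD133+ minus CD133-, on the vertical axis. The ribosomal protein genes (red) crowd at signals over 13 and differences near 0, while RPLP2 and RPL27A, read by dimmer probe sets, lie at 1.22 and 0.88, and RPL22L1 at -0.44.

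RPL22L1, the paralog of the large subunit protein RPL22, was the gene that fell. Its probe set had log2 signals of 10.78 and 10.91 on the CD133+ arrays, against 11.27 and 11.31 on the CD133- arrays. The clones did not overlap, and the gap between them was wider than that between replicates. The difference was -0.44 (SE 0.084, 95% interval -0.63 to -0.25, 1.36-fold lower, limma adjusted p = 0.0313). In mouse cells the Rpl22 protein is known to hold back the Rpl22l1 transcript.

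RPL22L1 was lower in every alternative run, by 0.38 to 0.53, but its call depended on the fit. Leaving out a CD133+ array gave limma adjusted p of 0.0376 (replicate 1) and 0.00766 (replicate 2), and leaving out a CD133- array gave 0.173 (replicate 1) and 0.112 (replicate 2). It was 0.169 without the variance trend, 0.563 against a 1.2-fold change, 0.0818 when every probe set was tested and 0.0607 in the fit to probe-set means, although the gene has 1 probe set. The 20 nearest measured genes on chromosome 3 had a median difference of -0.24, with 1 of them called.

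RPL22 itself had signals of 13.65 and 13.65 in CD133+ cells, against 13.60 and 13.61 in CD133- cells. It differed by 0.046 (SE 0.062, limma adjusted p = 0.717). The RPL22L1 signal minus this RPL22 signal was -2.87 and -2.73 on the CD133+ arrays, against -2.33 and -2.30 on the CD133- arrays. As this RPL22 signal was nearly the same on all arrays, the subtraction mostly restates the RPL22L1 difference. The brightest RPL22 probe set ends in x_at, an ending given to probe sets whose probes can match other sequences. Of its 5 probe sets 3 were positive, and the probe set with neither ending x_at nor s_at was at -0.20. That probe set had 11.23 and 10.96 on the CD133+ arrays, against 11.36 and 11.22 on the CD133- arrays. When it is subtracted from RPL22L1 instead, the arrays of the clones overlap. Both the direction of RPL22 and the subtraction thus depend on the probe set.

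The other paralogs did not pass. RPL26L1, which closely resembles RPL26, had signals of 10.79 and 10.88 in CD133+ cells, against 10.95 and 11.01 in CD133- cells. Its arrays did not overlap, and the difference was -0.14 (SE 0.083, limma adjusted p = 0.369). RPS27L, a paralog of RPS27 that p53 induces, had 11.16 and 11.61 in CD133+ cells, against 11.18 and 11.28 in CD133- cells.

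CD133+ replicate 2, highest in the ACTB ratio but not in the GAPDH ratio, stood above the other 3 arrays for RPS27L, whose difference was 0.15 (SE 0.14, limma adjusted p = 0.566). It was 0.38 without CD133+ replicate 1 (limma adjusted p = 0.0357) and -0.075 without CD133+ replicate 2. RPL7L1, a nucleolar protein related to RPL7, had a difference of 0.087 (SE 0.084, limma adjusted p = 0.596) and RPL36AL, a near-copy of RPL36A outside the symbols chosen here, 0.0093 (SE 0.071, limma adjusted p = 0.956). The main forms RPS27, RPL7 and RPL3 had differences of 0.0017, -0.025 and -0.035, and RPS4X, the X-linked form of the small subunit protein S4, 0.0062. Probe sets that name RPL3 together with small nucleolar RNAs, outside the choice made here, had differences from -0.14 to -0.055.

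The tissue-restricted paralogs were dim. RPL3L, which replaces RPL3 in striated muscle, had a mean signal of 4.16 ± 0.21 in CD133+ cells and 4.35 ± 0.22 in CD133- cells (SD, n = 2 each). RPL10L, the testis paralog of RPL10, had 5.06 and 5.58 in CD133+ cells, against 5.27 and 5.53 in CD133- cells. The groups overlapped in both genes (differences -0.19 and -0.077, limma adjusted p = 0.614 and 0.889). RPL39L, a paralog of RPL39, was the gene left out by the level filter, at 3.72 and 3.79 in CD133+ cells and 3.28 and 3.78 in CD133- cells, and was not tested. RPL39 had a difference of -0.15 (SE 0.087, limma adjusted p = 0.376).

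**Figure D2:**
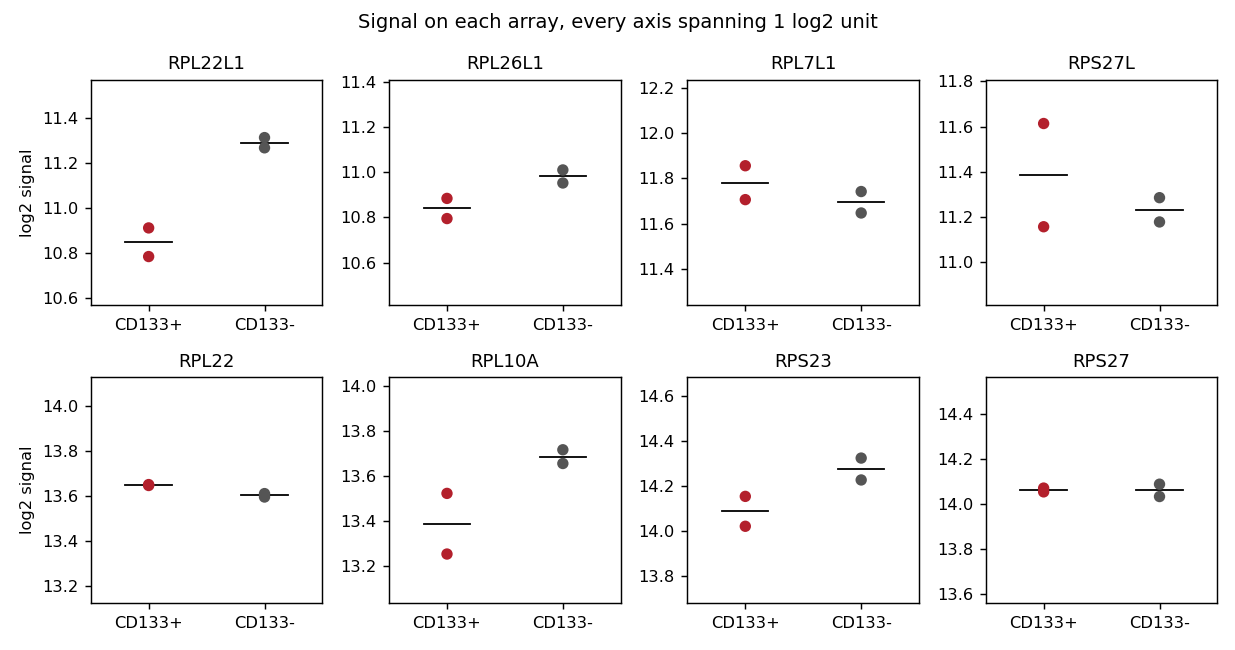
Each panel shows the log2 signal of a gene on the 2 CD133+ arrays (red) and the 2 CD133- arrays (grey), with a bar at the mean of each clone, and every vertical axis spans 1 log2 unit. RPL22L1 shows the widest gap between the clones, with CD133+ lower, and RPL26L1, RPL10A and RPS23 a smaller one with no overlap. RPL22 has no overlap in the other direction, by a small gap, and RPS27L is spread by CD133+ replicate 2.

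RPL10A and RPS23 came next among the bright genes. RPL10A, a large subunit protein that forms a mobile stalk, had 13.25 and 13.52 in CD133+ cells, against 13.65 and 13.72 in CD133- cells. The difference was -0.30 (SE 0.093, 95% interval -0.51 to -0.085, limma adjusted p = 0.126). Its call moved with the array set: without CD133+ replicate 2 the adjusted p was 0.00548, and with centred arrays 0.0474. The other RPL10A probe set was at 0.078, so the probe sets of this gene disagree in sign.

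RPS23, a small subunit protein near the decoding centre, had 14.02 and 14.15 in CD133+ cells, against 14.23 and 14.32 in CD133- cells, which is -0.19 (SE 0.072, 95% interval -0.35 to -0.021, limma adjusted p = 0.194). Its second, dimmer probe set was at -0.31. RPS23 lies on chromosome 5 among genes that were lower in CD133+ cells: its 20 nearest measured genes had a median difference of -0.60 and 11 of them were called, and the part of this stretch in the RPS23 difference was not tested. On the same chromosome RPL37 had -0.044 beside a neighbour median of 0.037, RPS14 had -0.087 beside 0.24, and RPL26L1 lay beside 0.050.

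RPL37A, on chromosome 2, had 14.11 and 14.12 in CD133+ cells, against 14.19 and 14.31 in CD133- cells, which is -0.14 (SE 0.067, limma adjusted p = 0.291). Its neighbours had a median of -0.078, with 4 of 20 called. The dimmer RPL37A probe sets parted further. A probe set at 6.52 and 6.11 in CD133+ cells, against 7.46 and 7.47 in CD133- cells, had -1.15 (limma adjusted p = 0.0611 when every probe set was tested). Another had 1.02 (limma adjusted p = 0.436 in the same run), at 7.87 and 7.34 in CD133+ cells, against 5.63 and 7.54 in CD133- cells. That difference rested on the low value of CD133- replicate 1. Of the remaining genes on chromosome 2, RPS7 was at -0.021 and RPL31 at 0.015.

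Neither RPS6, RPS19, RPL11 nor RPLP1 passed the test. RPS6, the phosphorylated small subunit protein, had a difference of -0.076 (SE 0.063), RPS19, the gene first linked to Diamond-Blackfan anaemia, -0.0015 (SE 0.060), and RPL11, which binds MDM2 when ribosome assembly fails, 0.047 (SE 0.064; -0.0093 in the values as deposited), with limma adjusted p between 0.525 and 0.992. RPLP1, an acidic protein of the stalk that recruits elongation factors, was at -0.053 (SE 0.071). Of 15 tested genes of Diamond-Blackfan anaemia 0 were called, and 0 had an unadjusted p under 0.05 (median difference -3e-04). Over all genes these shares were 3.65% and 20.6%. All of the 15 but TSR2 are ribosomal protein genes already counted above, so this is no separate result.

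**Figure D3:**
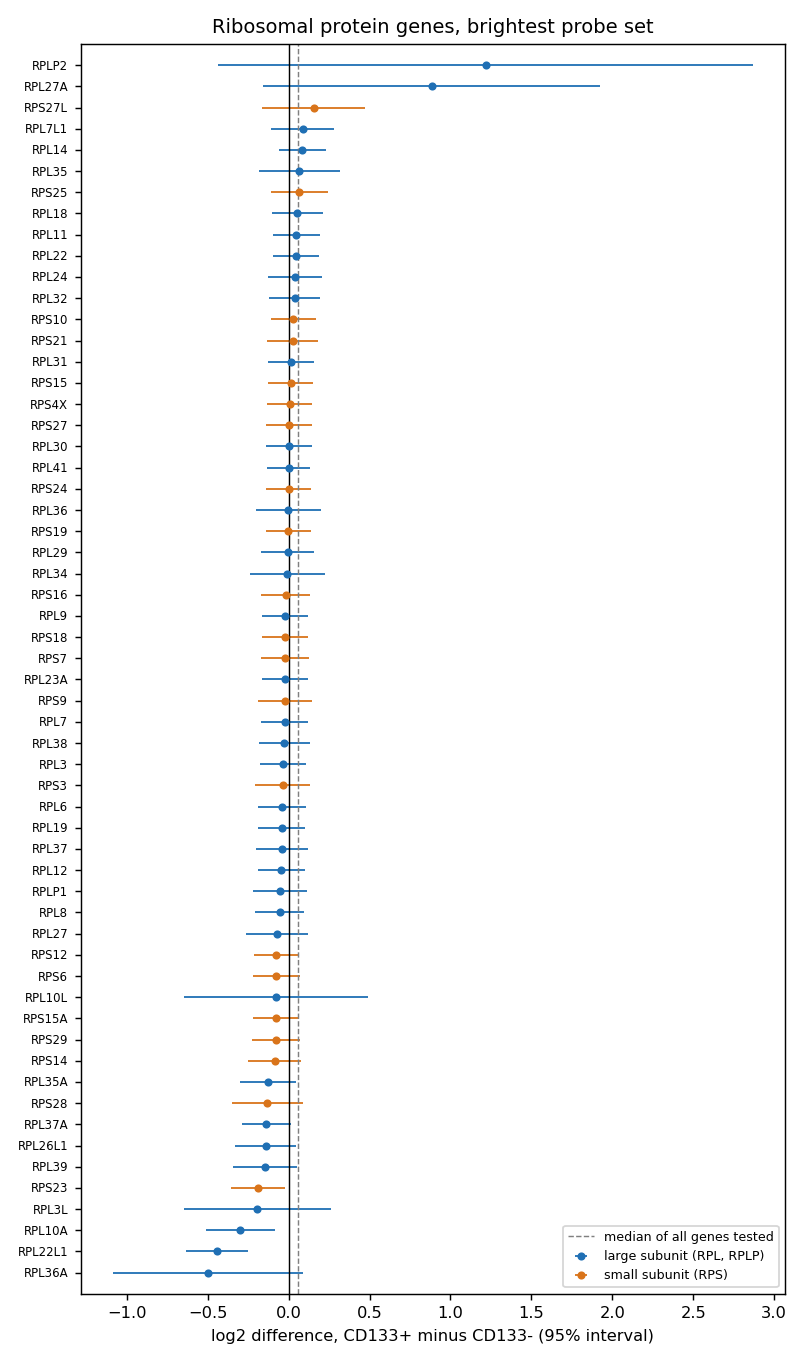
The log2 difference of each of the 58 tested genes, CD133+ minus CD133-, is drawn with its 95% interval from limma, large subunit genes in blue and small subunit genes in orange. Most intervals hold 0 and are narrow, RPL22L1, RPL10A and RPS23 lie wholly below 0, and RPLP2 and RPL27A have the widest intervals.

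The largest positive differences rested on 1 array. RPLP2, the other acidic stalk protein, had 7.62 and 8.30 in CD133+ cells, against 5.36 and 8.12 in CD133- cells. RPL27A, of the large subunit, had 8.45 and 8.77 in CD133+ cells, against 6.86 and 8.59 in CD133- cells. In each gene CD133- replicate 1 was well below the other 3 arrays. Those 3 ran from 7.62 to 8.30 in RPLP2 and from 8.45 to 8.77 in RPL27A.

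The differences were 1.22 (SE 0.72, limma adjusted p = 0.373) for RPLP2 and 0.88 (SE 0.45, limma adjusted p = 0.310) for RPL27A. Without CD133- replicate 2 they were 2.60 (adjusted p = 0.00439) and 1.75 (0.00559), and without CD133- replicate 1 they were -0.16 (0.917) and 0.019 (0.988). Brighter probe sets whose annotation names each gene together with a small nucleolar RNA did not show this: that of SNORA52 and RPLP2 had 13.78 and 13.77 on the CD133+ arrays, against 13.95 and 13.88 on the CD133- arrays, and that of SNORA3A and RPL27A had 14.12 and 14.24 on the CD133+ arrays, against 14.25 and 14.29 on the CD133- arrays. RPL36A, at -0.50 (SE 0.26, limma adjusted p = 0.310), was likewise read by a dim probe set with a mean of 5.44 in CD133+ and 5.94 in CD133- cells, while a probe set annotated to RPL36A and a readthrough gene was at 14.07 in CD133+ and 14.08 in CD133- cells.

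The low reading of CD133- replicate 1 extended to other dim probe sets of these genes. Of the 31 ribosomal protein probe sets with a mean signal between 5 and 10, CD133- replicate 1 was the lowest of the 4 arrays in 19 (61.3%), against 35.7% of all 20891 probe sets in that range. It lay more than 1 below the mean of the other arrays in 8 of the 31, against 89 of the 20891. The 8 belonged to RPLP2, RPL37A, RPL38 (2 of them), RPL27A, RPL14, RPS10 and RPS27L. Those of RPLP2, RPL27A and RPL37A are the probe sets described above, so these counts partly repeat that observation. A dim RPL38 probe set had 8.82 and 9.08 in CD133+ cells, against 7.17 and 9.02 in CD133- cells. A dim RPL14 probe set had 7.70 and 8.07 in CD133+ cells, against 6.34 and 7.97 in CD133- cells.

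The bright probe sets of the same genes did not follow. RPL38 had 13.71 and 13.79 in CD133+ cells, against 13.73 and 13.82 in CD133- cells. RPL14 had 13.50 and 13.47 in CD133+ cells, against 13.42 and 13.38 in CD133- cells, which is 0.085, and RPL35, of the large subunit, had a difference of 0.066. Over the 46 bright genes CD133- replicate 1 was lowest in 8 and CD133+ replicate 1 in 24.

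**Figure D4:**
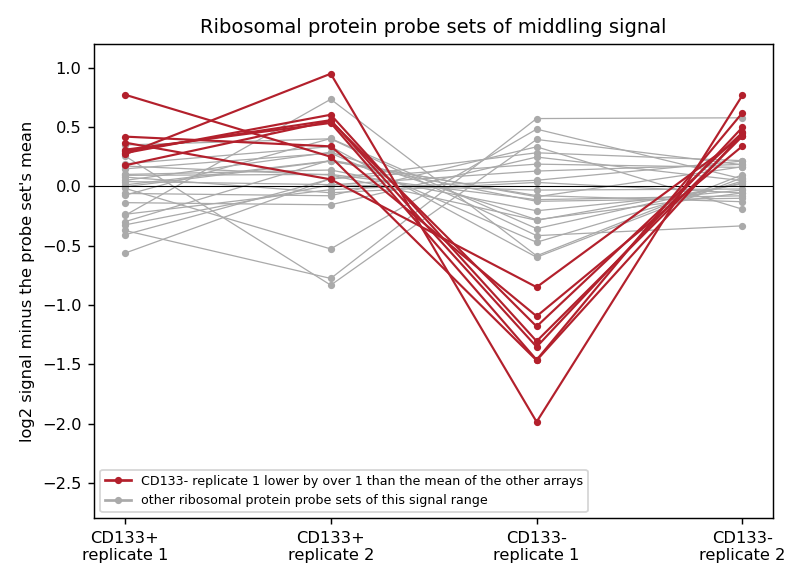
Lines join the log2 signals of each of the 31 ribosomal protein probe sets with a mean between 5 and 10 on the 4 arrays, each less the probe set's own mean. In the 8 red lines CD133- replicate 1 lies more than 1 below the mean of the other arrays.

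Probe sets of a gene often differed in sign. Of the 34 genes with several probe sets, 9 had all of them on the same side of 0. Of the 59 brightest probe sets 14 end in x_at and 29 in s_at, so most could also catch processed pseudogenes or related transcripts. When every probe set was tested on its own, a dim RPS15A probe set was the only ribosomal protein probe set past the threshold, with 9.59 and 9.65 in CD133+ cells against 8.83 and 8.91 in CD133- cells (0.75, adjusted p = 0.0496), against 0.421% of all probe sets. The brightest RPS15A probe set was at -0.078.

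Several genes that build ribosomes were lower in CD133+ cells. Of 46 tested ribosome biogenesis genes 5 fell and 0 rose (median -0.062), against 2.34% lower and 1.31% higher over all genes. NCL, nucleolin, a major nucleolar RNA-binding protein, had 11.78 and 11.93 in CD133+ cells, against 12.40 and 12.50 in CD133- cells, and fell by 0.59 (SE 0.082, limma adjusted p = 0.0125). WDR12, part of the PES1 and BOP1 complex that processes large subunit RNA, fell by 0.62 (SE 0.082, limma adjusted p = 0.0118), and UTP15, of the small subunit processome, had 6.53 and 6.57 in CD133+ cells, against 7.46 and 7.64 in CD133- cells (SE of the difference 0.17, limma adjusted p = 0.0224). In all 3 genes every CD133+ array lay below every CD133- array, as it did in 21.2% of all genes tested.

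TSR1, a late small subunit assembly factor, fell by 0.47 (SE 0.097, limma adjusted p = 0.0404) and NOP58, a core protein of the C/D box snoRNPs named here after its value was seen, by 0.41 (SE 0.089, limma adjusted p = 0.0472). All probe sets of NCL, WDR12 and UTP15 had the same sign, and so had 3 of 4 for TSR1. Several calls depended on the arrays and the fit. Leaving out CD133- replicate 1 gave limma adjusted p of 0.0728 for WDR12, 0.0812 for UTP15, 0.251 for TSR1 and 0.297 for NOP58, and leaving out CD133- replicate 2 gave 0.0691 for UTP15, 0.135 for TSR1 and 0.0859 for NOP58. Leaving out CD133+ replicate 2 gave 0.0548 for TSR1 and 0.0709 for NOP58. Without the variance trend all 5 missed the threshold, at 0.107 for WDR12, 0.0748 for UTP15, 0.150 for TSR1, 0.209 for NOP58 and 0.123 for NCL, and all 5 also missed it against a 1.2-fold change (0.0983, 0.0987, 0.558, 0.765 and 0.127 in that order). With probe-set means WDR12 had 0.0852, TSR1 0.302, NOP58 0.0847 and NCL 0.0776. When every probe set was tested UTP15 had 0.0596, TSR1 0.120 and NOP58 0.0981. TSR1 and NOP58 also missed the threshold in the values as deposited (0.0535 and 0.0596) and with centred arrays (0.0597 and 0.0512), and TSR1 without x_at and s_at probe sets (0.270) and, narrowly, with no filter on level (0.0500446). NCL stayed at or under 0.0454 without any single array, and had 0.334 without x_at and s_at probe sets.

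WDR12 and NOP58 lie close together on chromosome 2 (starts at 202874261 and 202265763) beside genes that were also lower, so they may not be separate results. Their neighbour medians were -0.35 and -0.56, each with 5 of 20 called. UTP15 lies on chromosome 5 with a neighbour median of -0.34 and 4 of 20 called. For NCL, also on chromosome 2, the neighbour median was 0.12, and for TSR1, on chromosome 17, it was 0.053, with 0 of 20 called for each. The part of these neighbourhoods in the differences was not tested. Fibrillarin, FBL, the snoRNP methyltransferase, was at 0.012 (SE 0.074), and NPM1, nucleophosmin, at -0.098 (SE 0.093).

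Over all genes 3.65% were called and 20.6% had an unadjusted p under 0.05, so lists of this size would hold few calls or none at that share. Other TOP mRNAs had 0 of 18 called by limma and 1 at an unadjusted p under 0.05 (median 0.0015), with EEF1A1, the elongation factor, at -0.031, EEF2 at -0.020 and TPT1 at -0.028. FAU, made as a fusion with the small subunit protein S30, was at 0.079 (SE 0.064). Chaperones and importers of ribosomal proteins had 0 of 12 called and 4 at an unadjusted p under 0.05 (median -0.079), and of the snoRNA host genes 4 were tested, with 0 called, 0 at an unadjusted p under 0.05 and a median of -0.12.

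Among 16 genes that control TOP mRNA translation or ribosomal protein transcription 1 rose and 0 fell (median 0.076), against 1.31% higher and 2.34% lower over all genes. EIF4EBP2, a translational repressor that mTOR phosphorylates, had 9.20 and 8.98 in CD133+ cells, against 8.15 and 8.26 in CD133- cells, and rose by 0.88 (SE 0.13, limma adjusted p = 0.0144). This call was lost on leaving out CD133- replicate 1 (0.0775), with centred arrays (0.0781), without the variance trend (0.0824), when every probe set was tested (0.0526), against a 1.2-fold change (0.0721) and with probe-set means (0.186), where the difference was 0.44. MTOR was at 0.067, LARP1 at 0.055 and MYC at -0.20 (SE 0.092, limma adjusted p = 0.266). Of 13 sensors of ribosome faults MAP3K20, the kinase ZAK that responds to stalled ribosomes, fell by 0.72 (SE 0.12, limma adjusted p = 0.0212) and 0 rose (median -0.072), beside the same shares over all genes. It lies on chromosome 2 among genes with a median of -0.66, 11 of 20 of them called, and its call was lost on leaving out CD133- replicate 1 (0.164), without the variance trend (0.107), with probe-set means (0.121), when every probe set was tested (0.0693) and against a 1.2-fold change (0.144).

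**Figure D5:**
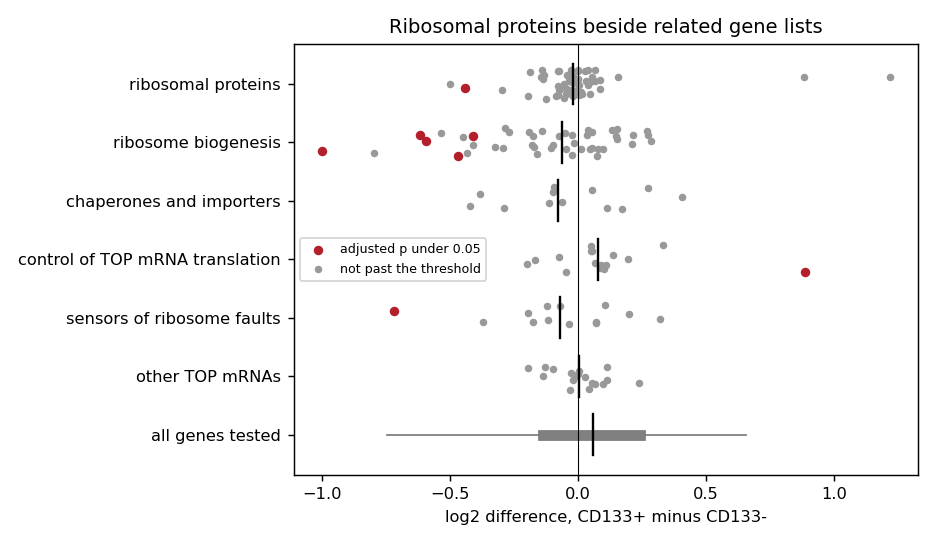
Points are the tested genes of each list by log2 difference, CD133+ minus CD133-, red where called, with a black bar at the median. For all genes tested the thick bar spans the middle 50% and the thin bar the middle 95% of differences. Of the ribosomal proteins 45 of 58 lie within 0.1 of 0, and the 5 called biogenesis genes all lie below 0.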

How the data were processed

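The authors deposited a log2 signal for each of 54675 probe sets on each array, 62 of them controls, made with Affymetrix Expression Console per the submitters' processing notes. Background correction, normalization and summarisation are not given in the sources used here. Deposited array medians ran from 4.45 to 4.60, a spread of 0.14, so the values were quantile normalized without the controls. Probe sets naming 1 gene (41091, annotation of the platform) gave 19775 genes, each read by its brightest probe set. The lowest 20% by level, below 3.75, were left out. limma 3.58.1 in R 4.3.3 (lmFit, eBayes with a variance trend, prior degrees of freedom 6.16) compared 2 arrays with 2, with Benjamini-Hochberg adjustment over 15820 genes and a threshold of 0.05. The fit was tried on simulated data with independent noise on each array and planted differences larger than that of RPL22L1. That setting does not cover deviations that arrays share, so it does not show how reliable the calls reported here are. An exact permutation test of a gene cannot go below 0.333 here, and the number of arrays limits the precision. Neighbours are the 10 nearest tested genes on each side in RefSeq order. The genes, lists and tests were chosen with earlier results of these data known.

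Named genes are PROM1, every called ribosomal protein gene, the 6 largest differences in each direction, the paralogs with their main forms, RPLP1, RPLP2, RPL11, RPS6, RPS19, genes left out by level, those near shifted stretches of chromosomes 2 and 5 (chromosome 7, also in the rule, held no tested gene of this kind), and up to 4 called genes of each list. Others were named after their values were seen. RPS4Y1 is not reported here.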

Additional observations from a re-analysis of the deposited data

How the results depend on the processing

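The count of ribosomal protein genes called was 1 as reported. It was 0 with no variance trend, with the mean of probe sets, with every probe set tested (counting the brightest of each gene), at an adjusted p under 0.01 and against a 1.2-fold change. It was 2 with arrays centred on their medians (RPL10A and RPL22L1, both lower). Without x_at and s_at probe sets it was 3 of 33 tested, with RPL22L1 and RPL37A lower and RPS15A higher. With a replicate block it was 5, with RPL10A, RPL22L1 and RPS23 lower and RPL27A and RPLP2 higher. Of these, RPL27A and RPLP2 are the genes whose difference rested on CD133- replicate 1. Over all genes the count was 577, and it was 12 with no variance trend, 247 with the mean of probe sets, 132 with every probe set tested, counted the same way, 50 at an adjusted p under 0.01, 79 against a 1.2-fold change and 3027 with the replicate block. Leaving out each array in turn gave 0 to 2 ribosomal protein genes and 122 to 706 genes in all, both lowest without CD133- replicate 1. The median difference of the ribosomal protein genes was -0.022 as reported and -0.11 with centred arrays and lay between -0.048 and -0.0053 when an array was left out, which leaves a lone array assumed to vary like the other clone. No named gene reversed a called direction. Same-numbered arrays deviated together across genes (r = 0.43), but the labels give no shared culture or day, so the arrays share only a number. The causes of these changes were not tested. Robust eBayes, no filter on level, a filter at the median level and the deposited values left the called ribosomal protein gene as RPL22L1 alone. Signals near the top of the range limit what these probe sets can show.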
